A study of Mus musculus with 2 samples.

Results

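Immediate early and dissociation genes are a set of 38 genes that are switched on rapidly by a growth signal, a stress or the enzymatic and mechanical separation of tissue into single cells. They were found by symbol, and all 38 were present once each among the 31053 genes of both libraries. The data came from total lung cells of mice aged 5 weeks, profiled by droplet sequencing that counts unique molecular identifiers (UMIs, which mark single captured molecules) at the 3' end of polyadenylated RNA. Control mice were Lkb1f/f, carrying floxed alleles of Lkb1 (gene symbol Stk11), a kinase upstream of AMPK and its relatives. The other group was Nkx2.1 Cre;Lkb1f/f, which holds the same floxed alleles and a Cre recombinase under Nkx2.1, a gene of the lung epithelial lineage. Each genotype had 1 library made from a pool of 3 mice, so genotype, pool and preparation of the library cannot be told apart, no test between genotypes is possible, and every interval below covers counting error only. The dissociation procedure is not given in the sources used here.

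Immediate early genes are transcribed without new protein synthesis, because the factors that drive them (serum response factor with its Elk partners, CREB, heat shock factor) are already in the cell and are switched on by phosphorylation or release. Their products fall into a first wave of transcription factors, among them the AP-1 subunits of the Fos and Jun families and the zinc finger Egr proteins, and a set of feedback regulators that shut signalling or messenger RNA down again. In the lung, as in other solid tissues, the same genes mark cells that were disturbed by digestion, and heat shock genes answer to misfolded protein. The members were grouped by these roles as 9 AP-1 family genes, 9 other transcription factors, 15 feedback regulators and 5 heat shock proteins.

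The control library held 13587 barcodes with 74219499 UMIs, and the Cre library 16821 barcodes with 81598779 UMIs. After filtering, 12481 control cells (median 3619 UMIs) and 14689 Cre cells (median 3253 UMIs) were kept. There were 68 barcode sequences found in both libraries. Cells were assigned to 24 classes by marker genes, none of which is a member, with 4 epithelial, 5 endothelial, 11 immune and 3 mesenchymal classes and mesothelium. Every marker of every class was detected in its class, and in none of them did another class have more markers among the 10 leading genes than its own. The cells were chosen by these same markers, so this is no independent check of the class names. Alveolar fibroblasts had only 2 of their 11 markers among the 10 leading genes. UMIs were summed over the cells of a class in each library and scaled to a common total as CPM, so that classes and libraries of unequal depth can be set side by side. Levels given as a pair joined by "to" are those of the control and then the Cre library. Lkb1 itself (Stk11) stood at 48.4 CPM (control library) and 29.5 CPM (Cre library) in alveolar type 2 (AT2) cells and was 1.64-fold lower (1.45 to 1.86), with the 95% counting interval in parentheses here and below. In alveolar type 1 (AT1) cells it was 1.80-fold lower (1.05 to 3.04), in club cells it was near equal at 16.2 to 16.4 CPM, and in general capillary cells it was 1.39-fold higher (0.866 to 2.22). Tags at the 3' end may lie outside the deleted part, so this is a weak check of the labels.

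Members with 50 or more UMIs in a class, control and Cre cells together, count as measured there. Because the median gene itself differed between the libraries (by -0.084 in alveolar macrophages to 0.43 in club cells, 0.16 in AT2 cells, as log2 of Cre over control), a relative log2 ratio was used, log2((Cre CPM + 5)/(control CPM + 5)) less that all-gene median of the class. A member is called higher or lower when it lies at least 1.5-fold from the all-gene median. Folds are plain ratios of CPM of the Cre over the control library.

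The promoters of the members were searched for binding letters of the factors named above. Of the 38 members, 29 had a promoter in the RefSeq table for GRCm38.p6, and the 250 bases before each start were searched on both strands, overlaps allowed. The other members, Egr1 among them, were not searched, and sites farther than 250 bases from a start would be missed. The cyclic AMP response element (CRE) core TGACG, which also lies within the full site, was in 15 of 29 members (51.7%) against 19.8% of 27025 genes. The full CRE TGACGTCA was in 3 members (10.3%, Btg2, Dusp1 and Maff) against 1.77%. The CArG box, the site of serum response factor, was in 3 members (10.3%, Dusp5, Egr2 and Zfp36) against 1.62%. The heat shock element GAANNTTC was in 4 members (13.8%, Fosl2, Hspa1a, Hspa1b and Jun) against 7.73%. The TATA box TATAAA was in 5 members (17.2%) against 14.3%, the Egr site GCGTGGGCG in 1 (Maff), and the AP-1 site TGANTCA in none of 29 against 7.82%. Fos and Junb are shown as members that went opposite ways in AT2 and capillary cells, and Hspa1a and Hspa1b as members that were higher in both. Each run is the 150 bases before the start, 5′ to 3′ on the gene's strand, from RefSeq. Capitals mark the CRE core in Fos and Junb, the TATA box in Fos and the heat shock element in Hspa1a and Hspa1b. The stretches lie at chr12:85473740-85473889 (plus strand, Fos), chr8:84978749-84978898 (minus, Junb), chr17:34972157-34972306 (minus, Hspa1a) and chr17:34959239-34959388 (minus, Hspa1b), and none overlaps an annotated exon.
Fos: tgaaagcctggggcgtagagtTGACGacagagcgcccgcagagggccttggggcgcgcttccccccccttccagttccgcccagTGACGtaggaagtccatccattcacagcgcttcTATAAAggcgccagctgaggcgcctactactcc
Junb: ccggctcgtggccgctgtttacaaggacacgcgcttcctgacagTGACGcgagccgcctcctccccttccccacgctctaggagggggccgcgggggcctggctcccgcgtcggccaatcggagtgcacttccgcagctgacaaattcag
Hspa1a: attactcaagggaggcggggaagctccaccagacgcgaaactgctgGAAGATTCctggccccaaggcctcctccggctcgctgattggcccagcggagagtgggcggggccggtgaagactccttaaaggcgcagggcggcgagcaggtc
Hspa1b: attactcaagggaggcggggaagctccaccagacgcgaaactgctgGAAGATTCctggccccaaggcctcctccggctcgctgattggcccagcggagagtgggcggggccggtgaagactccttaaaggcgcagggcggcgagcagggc
The 250-base windows of Hspa1a and Hspa1b were identical at 247 positions (98.8%). In the GENCODE annotation of GRCm38 the protein-coding genes lie side by side on the minus strand, Hspa1b at chr17:34956436-34959238 and Hspa1a at chr17:34969190-34972156, while Fos lies at chr12:85473890-85477273 and Junb at chr8:84974484-84978718. Hspa1a and Hspa1b are near-identical copies, but their 3' ends, where the tags lie, were not compared. Whether shared reads affect their counts was not checked, so their separate values are uncertain. A match is a description of letters, not of a site in use.

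In AT2 cells, the surfactant-making epithelium and the largest epithelial class (1398 control and 1664 Cre cells), the summed level of the members was higher in the Cre library. Together they took 6801 CPM of control and 11359 CPM of Cre AT2 transcripts. Of 36 measured members 15 were called higher and 0 lower, against 4.19% of all 11015 genes measured there called higher and 3.55% lower. The median relative log2 ratio was 0.55, and 32 of the 36 lay above the all-gene median. Egr3 and Apold1 stayed under 50 UMIs, the former at 19 UMIs in the control and 28 in the Cre library, the latter at 15 and 9.

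Of the 9 AP-1 genes, all lay above the AT2 all-gene median and 5 were called higher. Fos, the partner that must pair with a Jun protein to bind DNA, stood at 551 CPM (control library) and 941 CPM (Cre library), and was 1.71-fold higher (1.66 to 1.76). Fosb, its close relative, went with it at 162 to 275 CPM and was 1.70-fold higher (1.61 to 1.79). Junb, a Jun protein of weaker activity that competes with Jun, stood at 278 CPM (control library) and 479 CPM (Cre library), and was 1.72-fold higher (1.66 to 1.80). The later Fos relatives Fosl2 and Fosl1 were also higher at low levels. Fosl2 stood at 23.8 to 57.5 CPM and was 2.41-fold higher (2.12 to 2.75), while Fosl1 rested on 12 control and 70 Cre UMIs and was 5.78-fold higher (3.11 to 11.7). Jun itself stood at 641 CPM (control library) and 804 CPM (Cre library) and Jund at 678 and 896 CPM, both within 1.5-fold of the all-gene median. Atf3, a stress-induced factor that often represses, stood at 145 to 237 CPM and lay just inside the limit at a relative log2 ratio of 0.53.

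Among the other transcription factors of AT2 cells, Cebpd, a factor of inflammatory gene expression, stood farthest from the median at 148 CPM (control library) and 372 CPM (Cre library), which was 2.52-fold higher (2.39 to 2.65). Egr1, the zinc finger factor often used as a readout of ERK signalling, stood at 375 to 650.0 CPM and was 1.73-fold higher (1.67 to 1.79). Egr2 was 3.02-fold higher (2.16 to 4.29) at the low level of 3.43 to 10.3 CPM. Klf2 and Klf4 were close to the all-gene median at relative log2 ratios of 0.026 and 0.026, so the higher level did not extend to every factor of the set.

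The feedback regulators of AT2 cells were led by Phlda1, a pleckstrin homology-like protein induced by growth factor signalling. It stood at 192 CPM (control library) and 782 CPM (Cre library) and was 4.07-fold higher (3.90 to 4.25), and in the Cre library no other class of the 24 had a higher Phlda1 level. Ier3, a survival gene of stressed cells, was 1.77-fold higher (1.64 to 1.92) at 73.1 to 129 CPM, and Ier5, a regulator of heat shock factor, was 1.83-fold higher (1.66 to 2.02) at 44.3 to 81.1 CPM. The other 11 measured regulators were within 1.5-fold of the all-gene median. Dusp1, a phosphatase that turns MAP kinases off, stood at 363 CPM (control library) and 483 CPM (Cre library), and Zfp36, which binds AU-rich messages and speeds their decay, at 289 and 482 CPM. Socs3, Gadd45b, Dusp2 and Dusp5 lay below the all-gene median, the lowest being Gadd45b at -0.31.

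Heat shock proteins were the group with the largest AT2 difference, with 4 of 5 called higher and a median of 0.86. Hspa1b, an inducible Hsp70 chaperone, stood at 23.4 CPM (control library) and 118 CPM (Cre library) and was 5.03-fold higher (4.46 to 5.69), and its copy Hspa1a was 3.44-fold higher (3.1 to 3.82) at 34.2 to 118 CPM. Hspa8, the constitutive Hsp70 chaperone, was 2.04-fold higher (1.99 to 2.08) at 755 to 1537 CPM. Dnajb1, the Hsp40 helper of these chaperones, was 1.82-fold higher (1.62 to 2.04) at 33.5 to 61.1 CPM, and Hsp90aa1, the inducible Hsp90 chaperone, stood at 464 to 734 CPM, within the limit. Many AT2 members sat close to the 1.5-fold limit. Fosb, Fos, Junb, Fosl1, Dnajb1, Ier3 and Egr1 lay just past it at relative log2 ratios from 0.59 to 0.63, and Zfp36, Gadd45g, Ier2 and Atf3 just within it at 0.57, 0.57, 0.57 and 0.53. With called doublets kept, 8 were higher and 1 lower, and without subtraction of the all-gene median 23 were higher. The calls of Fos, Fosb, Fosl1, Junb, Egr1, Egr2, Ier3, Ier5 and Dnajb1 each ended under 1 to 4 of the alternative settings, the lowest values being 0.18 for Fosl1 and 0.29 for Egr2, both at a pseudocount of 20 CPM. Beside these values, the share of Sftpc, the leading surfactant transcript, was 222582 CPM of control and 160949 CPM of Cre AT2 UMIs, the 10 erythroid markers summed to 593 and 4909.6 CPM with 2 and 1 of them at 0, and AT2 cells had medians of 10323 and 8019 UMIs. Their part in the result was not tested.

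**Figure D1:**
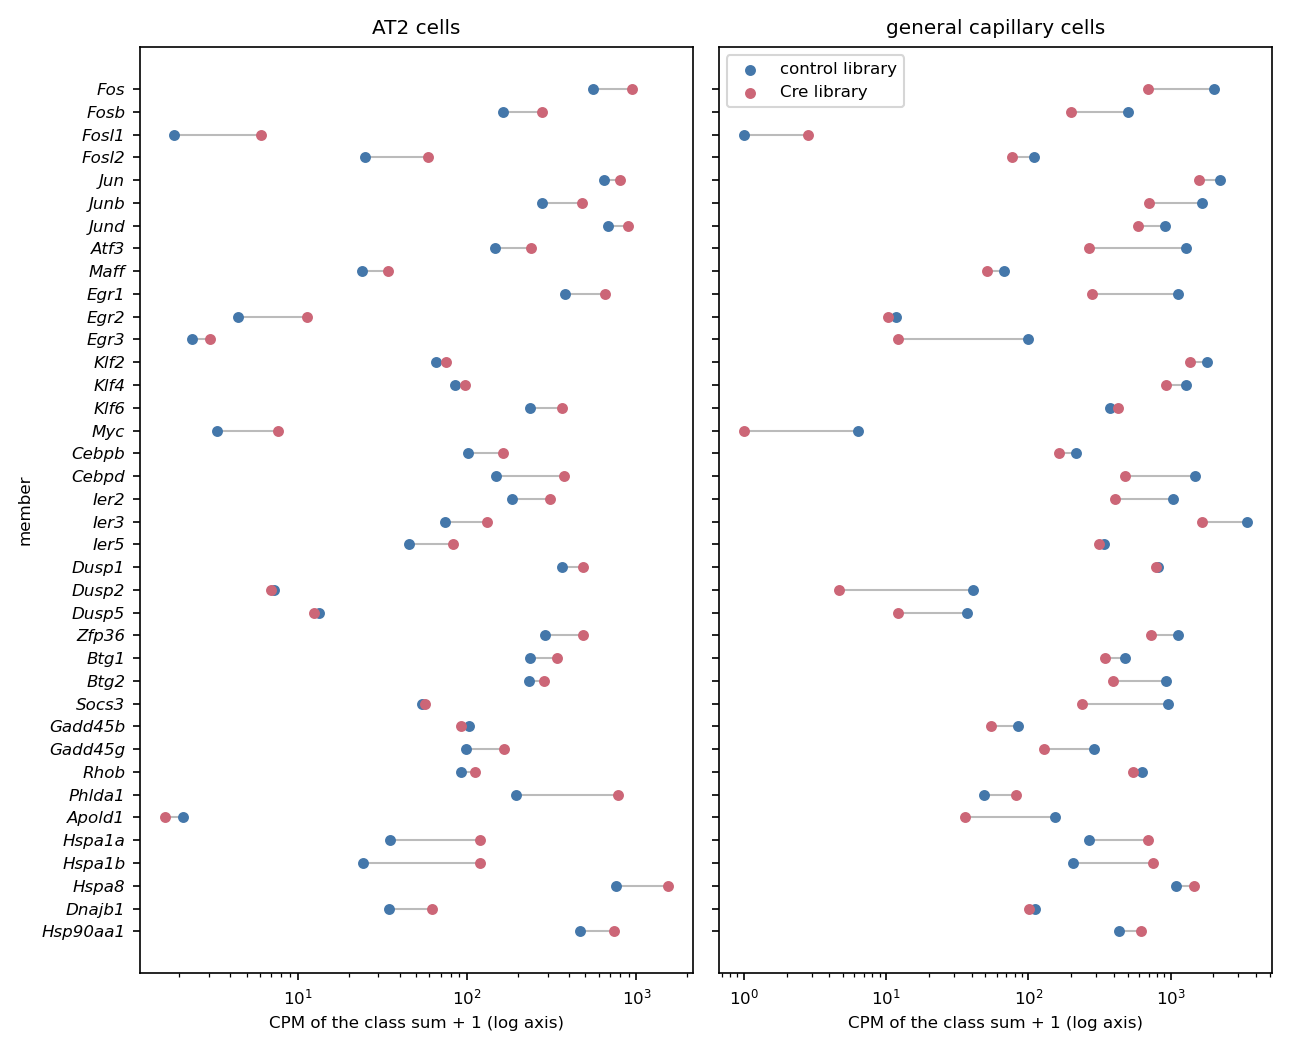
Level of each of the 38 members in AT2 cells (left) and general capillary cells (right), as CPM of the class sum plus 1 on a log axis, with 1 blue point for the control and 1 red point for the Cre library and a grey line between them. Most red points lie to the right in AT2 cells and to the left in capillary cells, apart from heat shock genes such as Hspa1b.

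General capillary cells, an endothelial class, went the other way. The members took 27639 CPM in control cells and 17195 CPM in Cre cells. Of 33 measured members 3 were higher and 16 lower, against 6.57% of 4200 genes called higher and 7.36% lower, and the median was -0.54. Fosl1, Egr2, Myc, Dusp2 and Dusp5 were under 50 UMIs. These cells were shallow, with 504 control and 349 Cre cells at medians of 920.5 and 1021 UMIs.

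All 8 measured AP-1 genes lay below the capillary all-gene median and 5 were called lower. Atf3 stood at 1273 CPM (control library) and 265 CPM (Cre library), and was 4.81-fold lower (4.03 to 5.78). Fos stood at 2029 to 692 CPM and was 2.93-fold lower (2.62 to 3.29), with Fosb 2.53-fold lower (2.04 to 3.17) at 501 to 198 CPM and Junb 2.34-fold lower (2.08 to 2.63) at 1652 to 707 CPM. Jund, the least inducible Jun protein, was 1.55-fold lower (1.36 to 1.78) at 913 to 588 CPM. Jun was within the limit at 2228 to 1593 CPM. In every one of these genes the control library was the higher.

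Of the other transcription factors in capillary cells, Egr3 was 8.90-fold lower (3.90 to 25) on 74 control and 6 Cre UMIs, and with clusters in place of the marker gate its relative log2 ratio moved from -2.74 to -1.70. Egr1 stood at 1128 CPM (control library) and 279 CPM (Cre library) and was 4.04-fold lower (3.39 to 4.84), and with clusters its relative log2 ratio moved from -2.05 to -1.43. Cebpd was 3.09-fold lower (2.70 to 3.55) at 1488 to 481 CPM. Klf2, the flow-sensing factor of endothelium, and Klf4 were within the limit, at 1803 to 1365 CPM and 1278 to 932 CPM.

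Among the feedback regulators 8 were lower and 1 higher in capillary cells. Socs3, which blocks cytokine signalling through STAT3, stood at 954 CPM (control library) and 239 CPM (Cre library), and was 4.0-fold lower (3.31 to 4.86). Apold1, an endothelial immediate early gene, was 4.33-fold lower (2.65 to 7.46) at 152 to 35.1 CPM, and with clusters its relative log2 ratio moved from -2.02 to -0.97. Ier2 was 2.52-fold lower (2.17 to 2.94) at 1031 to 409 CPM and Ier3 2.05-fold lower (1.90 to 2.22) at 3435 to 1672 CPM. Btg2, an antiproliferative regulator of messenger RNA decay, was 2.32-fold lower (1.99 to 2.72) at 920.1 to 396 CPM. Gadd45g and Gadd45b, stress sensors upstream of p38, were 2.26-fold lower at 288 to 128 CPM and 1.57-fold lower at 84.1 to 53.6 CPM, the latter with an interval that includes 1. Zfp36 was 1.53-fold lower (1.35 to 1.73) at 1119 to 733 CPM. Phlda1 was the exception at 48.1 to 81.4 CPM on 36 and 44 UMIs, 1.69-fold higher (1.06 to 2.71). Dusp1 hardly differed, at 809 to 786 CPM. Under 1 to 5 of the alternative settings the calls of Gadd45b, Zfp36, Phlda1 and the AP-1 gene Jund ended, with relative log2 ratios of -0.45, -0.46, 0.32 and -0.50 where nearest to 0.

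The heat shock members did not follow the rest in capillary cells. Hspa1b stood at 204 CPM (control library) and 747 CPM (Cre library), and was 3.66-fold higher (3.03 to 4.43), and Hspa1a was 2.59-fold higher (2.18 to 3.09) at 267 to 692 CPM. Hspa8 and Hsp90aa1 were above the all-gene median and within the limit, at 1092 to 1456 CPM and 431 to 618 CPM, and Dnajb1 stood at 111 to 99.9 CPM. Beside the capillary values, the 12 mesenchymal markers summed to 1143 CPM in control and 2162 CPM in Cre cells and the 10 erythroid markers to 579.6 and 6628 CPM. Of the former 1 marker was at 0 in the control and none in the Cre library, and of the latter 4 and 2 were at 0. The erythroid sum was higher in the Cre library in every class. It was 704 and 11983 CPM in aerocytes, 139 and 16468 CPM in plasmacytoid dendritic cells, and only 284 and 410 CPM in venous cells. The part of these markers in the result was not tested, here or in the other classes.

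Set against each other, AT2 and capillary cells separated for nearly every member. For 31 members measured in both, the log2 ratio of AT2 cells exceeded that of capillary cells in 31, with a median difference of 0.93, and the counting interval of the difference lay above 0 in 29. The exceptions were Gadd45b (0.38, interval -0.26 to 1.03) and Hsp90aa1 (0.037, interval -0.19 to 0.26). The widest differences were in Atf3 (2.87, interval 2.60 to 3.13), Cebpd (2.86, interval 2.65 to 3.07) and Egr1 (2.70, interval 2.45 to 2.96). The same counts were not made over all genes, so how far 31 or 29 of 31 stands from other genes is not known. Both classes came from the same 2 libraries, but each log2 ratio compares 1 library with the other, so the contrast rests on 1 library per genotype. A difference in preparation that acts unequally on the 2 classes cannot be told apart from genotype.

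AT1 cells, the flat gas-exchange epithelium, had 102 control and 281 Cre cells and resembled AT2 cells in direction. There 9 of 29 measured members were higher and 2 lower, where 11.1% of all genes measured there were higher and 8.85% lower by that rule, and the median was 0.40. Phlda1 was 3.62-fold higher (2.55 to 5.29) at 102 to 369 CPM, Hspa8 2.58-fold higher (2.25 to 2.98) at 673 to 1738 CPM, Fosb 2.28-fold higher (1.62 to 3.29) at 114 to 259 CPM, and Dnajb1 2.37-fold higher (1.31 to 4.64) at 37.9 to 89.8 CPM. Fos was 2.52-fold higher (2.04 to 3.12) at 303 to 763 CPM, and its relative log2 ratio of 1.25 became 0.52 when cells were thinned to 1000 UMIs. Egr1, Atf3, Ier2 and Zfp36 were also called higher, while Klf2 and Ier3 were lower. Beside this, the 12 AT2 markers summed to 6722 CPM in control and 16969 CPM in Cre cells within the AT1 class. The part of AT2 transcripts in the AT1 values was not tested.

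Club cells, the secretory cells of the airway, were mixed. Here 10 of 37 measured members were higher and 1 lower, where 5.4% of all genes measured there were higher and 4.41% lower by that rule, and the median was 0.16. Egr3 was 6.20-fold higher (3.90 to 10.3) at 3.13 to 19.4 CPM, Hspa1b 4.05-fold higher (3.13 to 5.29) at 11 to 44.4 CPM, Phlda1 3.08-fold higher (2.91 to 3.27) at 233 to 719.8 CPM and Hsp90aa1 2.59-fold higher (2.45 to 2.73) at 263 to 681 CPM. Klf2 was the lone member lower, 2.14-fold lower (1.91 to 2.40) at 156 to 72.7 CPM. At a pseudocount of 20 CPM the relative log2 ratio of Egr3 moved from 1.16 to 0.54, and with cells thinned to 1000 UMIs that of Hsp90aa1 moved from 0.93 to 0.54, both under the 1.5-fold limit. The club median was -0.0060 with the mean of per-cell CPM and 0.59 without subtraction of the all-gene median, so its sign is not firm.

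Ciliated cells, which move mucus, did not follow the other epithelium. With 85 control and 71 Cre cells, 5 of 34 measured members were higher and 16 lower, where 6.54% of all genes measured there were higher and 6.96% lower by that rule, and the median was -0.57. The control library held the highest Fos level of any class here, with 6147 CPM (control library) and 2413 CPM (Cre library), which was 2.55-fold lower (2.41 to 2.69). Jun was 2.80-fold lower (2.59 to 3.04) at 3050.2 to 1087 CPM, Fosb 2.48-fold lower (2.18 to 2.83) at 1083 to 437 CPM and Atf3 2.46-fold lower (2.25 to 2.69) at 2337 to 950.4 CPM. Hspa1a was 2.90-fold lower (1.92 to 4.47) at 123 to 42.3 CPM on 87 and 33 UMIs, while its copy Hspa1b stood at 76.1 to 82.0 CPM. Hsp90aa1, Hspa8, Dnajb1, Phlda1 and Gadd45g were higher. Within the epithelium, alveolar and ciliated cells thus stood on opposite sides of 0.

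The other blood endothelial classes had the same direction as general capillary cells. In aerocytes, the alveolar capillary cells specialised for gas exchange, 2 of 31 measured members were higher and 17 lower, where 6.56% of all genes measured there were higher and 6.77% lower by that rule, and the median was -0.70. Socs3 was 4.48-fold lower (3.26 to 6.27) at 520.3 to 116 CPM, Fosb 3.57-fold lower (2.83 to 4.55) at 793 to 222 CPM, Egr1 3.50-fold lower (2.94 to 4.19) at 1383 to 395 CPM, Atf3 3.13-fold lower (2.57 to 3.85) at 971 to 310.0 CPM and Cebpd 2.83-fold lower (2.14 to 3.79) at 461 to 163 CPM. In venous cells 1 of 32 measured members were higher and 15 lower, where 9.08% of all genes measured there were higher and 7.68% lower by that rule, and the median was -0.56. Atf3 was 4.61-fold lower (3.92 to 5.45) there at 1547 to 335 CPM, Fosb 3.19-fold lower at 1242 to 389.8 CPM, Gadd45b 2.91-fold lower at 127 to 43.5 CPM, Fos 2.52-fold lower at 3742 to 1487 CPM and Cebpd 2.21-fold lower at 2400.4 to 1088 CPM. In arterial cells 2 of 32 measured members were higher and 16 lower, where 7.26% of all genes measured there were higher and 7.64% lower by that rule, and the median was -0.59. Socs3 was 2.70-fold lower (2.13 to 3.46) there at 569 to 211 CPM, Atf3 2.34-fold lower at 1469.8 to 627 CPM, Fosl2 2.19-fold lower at 184 to 84.2 CPM and Gadd45b 2.18-fold lower at 280.0 to 129 CPM, with Hspa1b 2.40-fold higher at 148 to 356 CPM. Fos, Fosb, Jun, Junb, Jund, Atf3, Cebpd, Ier2, Ier3, Btg2, Socs3 and Gadd45g were called lower in aerocytes, venous and arterial cells alike.

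Lymphatic endothelium, which drains fluid and cells, differed from the blood vessels in most members, and its AP-1 genes shared only the sign of their median with them. With 116 control and 109 Cre cells, 12 of 31 measured members were higher and 1 lower, where 9.57% of all genes measured there were higher and 8.41% lower by that rule, and the median was 0.50. Egr3 rested on 3 control and 62 Cre UMIs, at 8.18 to 159 CPM, a ratio of 19.4 with an interval of 6.33 to 96.6. Dusp5, the nuclear ERK phosphatase, was 8.29-fold higher (3.57 to 23.6) at 16.4 to 136 CPM on 6 and 53 UMIs. Fosl2 was 4.65-fold higher (2.85 to 7.93) at 54.6 to 253 CPM, Cebpb 2.47-fold higher (2.02 to 3.04) at 368 to 911 CPM and Apold1, which is among the 10 leading genes of this class, 2.51-fold higher (2.18 to 2.90) at 734 to 1841 CPM. Fosb was the single member called lower. Of 8 measured AP-1 genes 2 were called higher and 1 lower, 5 lay below the all-gene median, and their median was -0.13. Their summed level stood at 8394 CPM in control and 7731 CPM in Cre cells. The AP-1 median was thus below 0 in all 5 endothelial classes. In the 4 blood endothelial classes it ran from -1.33 to -0.77, with 0 of 31 values called higher and 24 lower. The 12 AT2 markers summed to 3047 CPM in control and 968 CPM in Cre lymphatic cells, and their part was not tested.

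**Figure D2:**
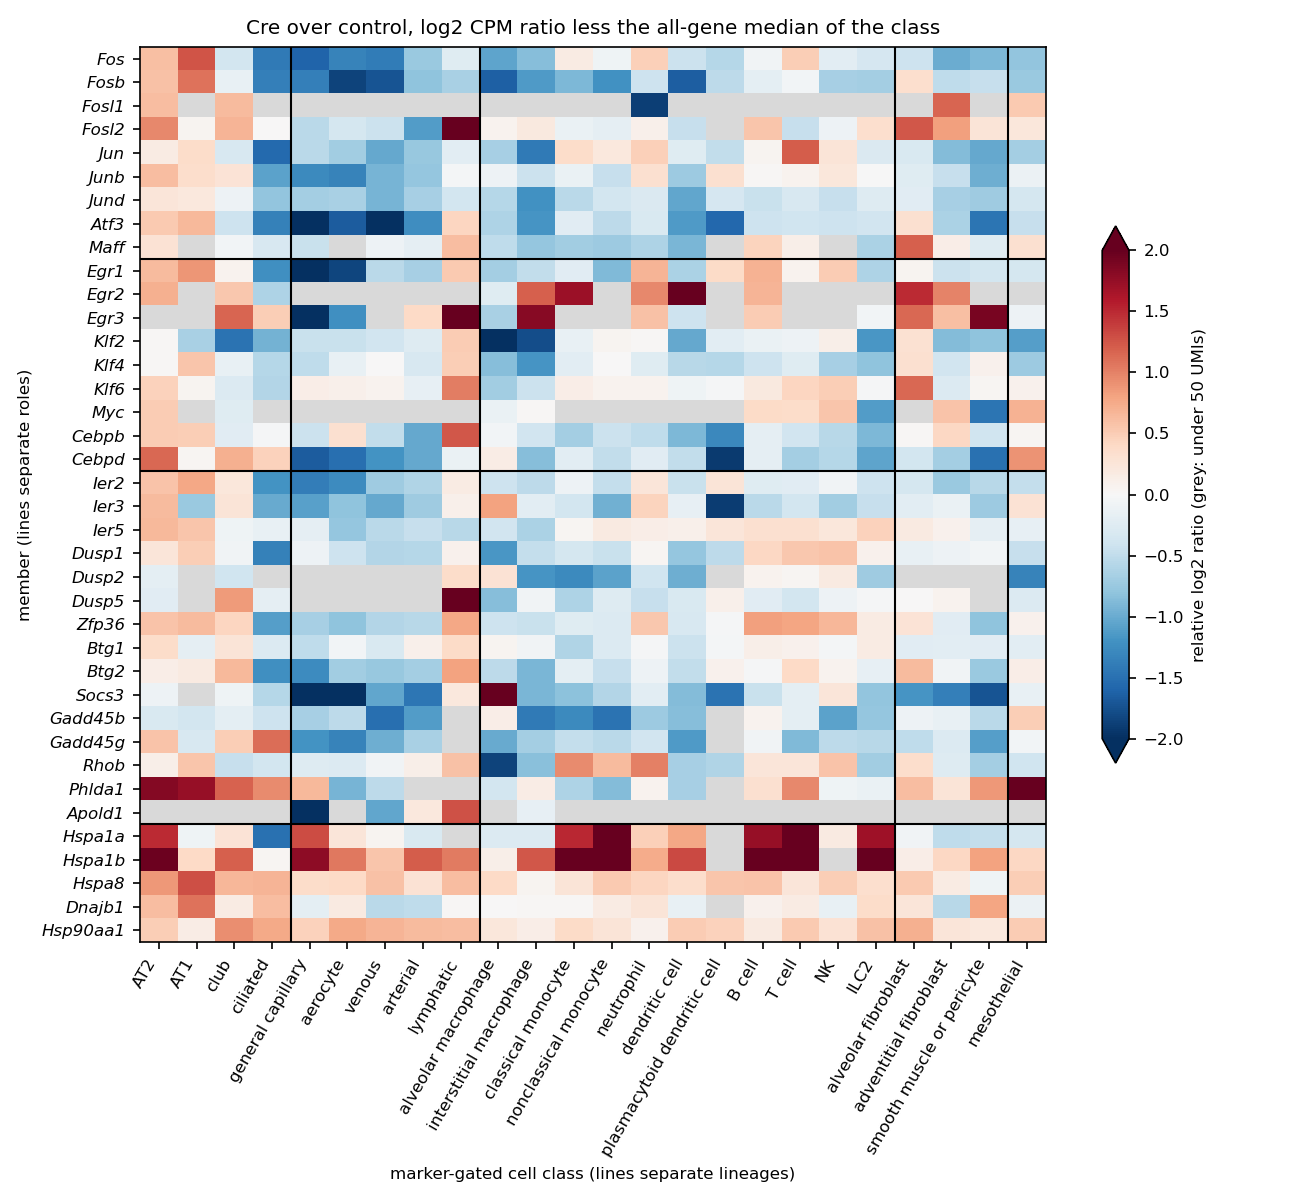
Relative log2 ratio (Cre over control, less the all-gene median of the class) of each of the 38 members in each of the 24 cell classes, with members under 50 UMIs left blank. Blood endothelial columns are below 0 for most members, AT2 and lymphatic columns above 0, and the heat shock members mostly above 0 in every lineage.

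Averaged with equal weight over the classes of a lineage, the members had a median of 0.047 in epithelium (23 of 37 above 0), -0.32 in endothelium (9 of 35 above 0) and -0.18 in immune cells (11 of 38 above 0), against -0.20 in mesenchymal cells (15 of 36 above 0). The epithelial value exceeded the endothelial value in 25 of 34 members by a median of 0.49, and the immune value in 31 of 37 by a median of 0.25. A lineage value averages only the classes where the member was measured, so some rest on a single class. The endothelial Dusp5 value of 2.67 came from lymphatic cells alone, and the immune Fosl1 value of -1.88 from neutrophils alone. Within epithelium the class medians were positive in AT2 and AT1 cells and negative in ciliated cells under every setting tried, and positive in club cells apart from the mean of per-cell CPM. Averaging AT2 with AT1 cells gave 0.49, and averaging the 4 blood endothelial classes gave -0.65, a difference of 1.0 with 30 of 31 members above 0. These 2 narrower groupings were chosen after the class values were seen. None of these counts of members above 0 or above another lineage was made over all genes. The immune median was 0.00038 after thinning, and the epithelial median 0.22 with the mean of per-cell CPM, so neither lineage value is firm in size.

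Single members differed in how their lineage means of the relative log2 ratio were ordered. Fos stood at 0.022 in epithelium, -1.06 in endothelium and -0.23 in immune cells. Atf3 stood at -0.15, -1.41 and -0.65 in that order, and Egr1 at 0.091, -0.91 and -0.11. Jun was below 0 in all 3, at -0.33, -0.65 and -0.048. Dusp1 differed little at -0.17, -0.32 and -0.19, and Zfp36 stood at 0.13, -0.37 and 0.12. Klf2 was lowest in epithelium at -0.76, with -0.20 in endothelium and -0.62 in immune cells. Hspa1a was highest in immune cells at 1.16, against 0.044 in epithelium and 0.32 in endothelium, and Hsp90aa1 was above 0 in all 3 at 0.58, 0.63 and 0.33. In mesenchymal cells Fos stood at -0.77, Jun at -0.73, Egr1 at -0.24, Atf3 at -0.59, Dusp1 at -0.10, Zfp36 at -0.25, Klf2 at -0.46, Hspa1a at -0.35 and Hsp90aa1 at 0.38.

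**Figure D3:**
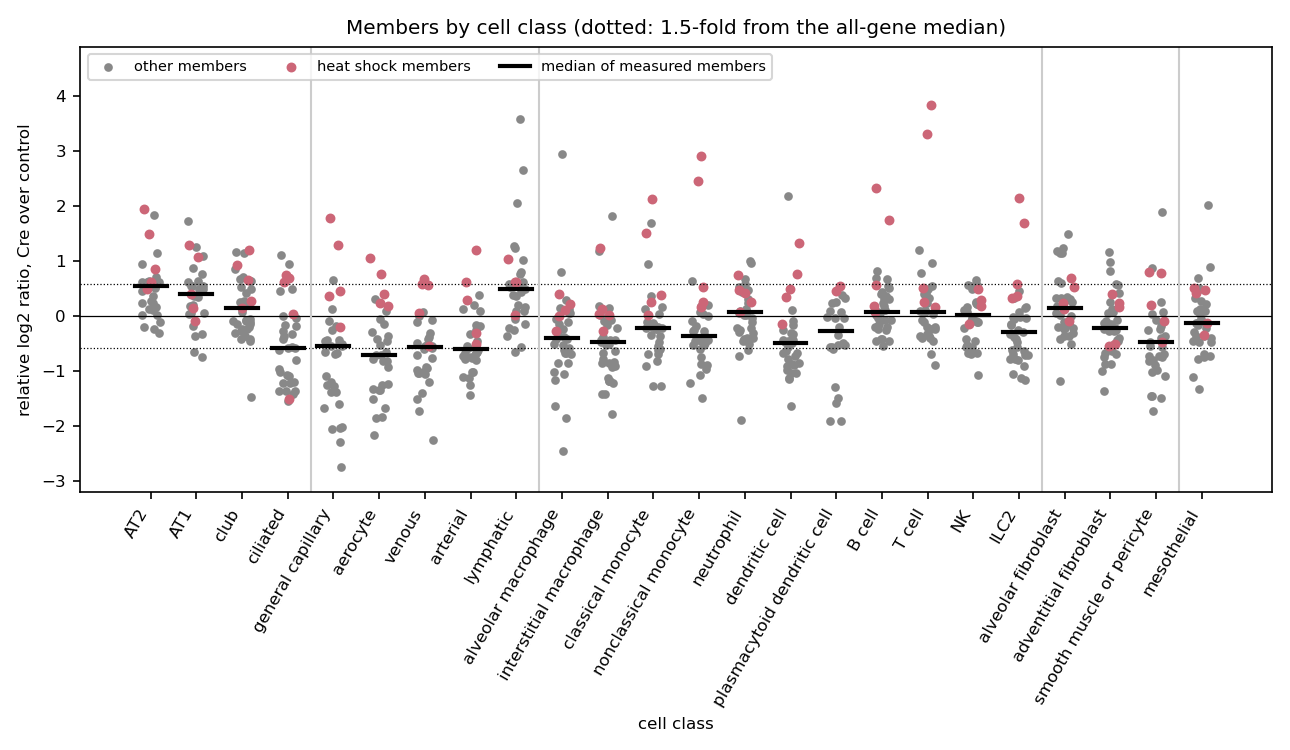
Relative log2 ratio of every measured member in each of the 24 cell classes, 1 point per member, with dotted lines at 1.5-fold from the all-gene median. The points of the 4 blood endothelial classes lie mostly below 0, those of AT2 cells mostly above 0, and the highest points are Hspa1b and Hspa1a in T cells and Egr3 in lymphatic cells.

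Among immune cells, macrophages and dendritic cells had more members called lower than higher. In alveolar macrophages 2 of 36 measured members were higher and 13 lower, where 5.12% of all genes measured there were higher and 3.75% lower by that rule. Klf2, which restrains inflammatory genes, was 6.01-fold lower (5.57 to 6.50) at 578 to 96.2 CPM, Rhob, a small GTPase, 4.02-fold lower (3.68 to 4.40) at 317 to 78.6 CPM, Fosb 3.37-fold lower at 469.6 to 139 CPM and Dusp1 2.38-fold lower at 1395 to 587 CPM. Socs3 was the contrary case, 8.51-fold higher (7.12 to 10.2) at 25.9 to 221 CPM, while it was lower in every blood endothelial class. In interstitial macrophages 3 of 37 measured members were higher and 16 lower, where 8.29% of all genes measured there were higher and 7.71% lower by that rule. Egr3 was 4.35-fold higher at 34.0 to 148 CPM and Hspa1b 2.73-fold higher at 76.5 to 209 CPM, with Klf2 3.09-fold lower at 1536 to 498 CPM, Gadd45b 2.43-fold lower at 726 to 299 CPM and Jun 2.41-fold lower at 1781 to 739 CPM. In dendritic cells 3 of 35 measured members were higher and 15 lower, where 10.9% of all genes measured there were higher and 10.4% lower by that rule. Fosb was 2.71-fold lower there at 568 to 209 CPM, Gadd45g 2.03-fold lower at 64.5 to 31.8 CPM and Atf3 1.89-fold lower at 504 to 267 CPM, against Hspa1b at 26.8 to 88.0 CPM and Egr2 on 3 and 72 UMIs at 3.65 to 40.9 CPM, a ratio of 11.2 with an interval of 3.68 to 55.6. With clusters in place of the gate the relative log2 ratio of Egr2 moved from 2.18 to 0.56 and that of Gadd45g from -1.14 to -0.27. In plasmacytoid dendritic cells (60 control and 61 Cre cells) 0 of 24 measured members were higher and 6 lower, where 8.98% of all genes measured there were higher and 6.81% lower by that rule. Cebpd was 4.01-fold lower (2.17 to 8.09) at 165 to 41.1 CPM, Ier3 4.03-fold lower at 152 to 37.7 CPM, Atf3 3.12-fold lower at 149 to 47.9 CPM, Socs3 3.02-fold lower at 93.2 to 30.8 CPM and Cebpb 2.47-fold lower at 271 to 109.6 CPM. With doublets kept, the relative log2 ratios of Ier3, Socs3 and Cebpb moved to -0.63, -0.47 and -0.33.

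Both monocyte classes also had more members called lower than higher, with medians of -0.21 (classical) and -0.36 (nonclassical). Neutrophils were mixed, with a median of 0.071. The signs of the classical monocyte and neutrophil medians changed under some alternative settings. In classical monocytes 4 of 34 measured members were higher and 9 lower, where 9.41% of all genes measured there were higher and 7.58% lower by that rule. Hspa1b was 5.72-fold higher (4.39 to 7.55) at 23.0 to 132 CPM and Hspa1a 3.39-fold higher at 52.5 to 178 CPM, while Dusp2, a phosphatase of activated leukocytes, was 2.19-fold lower at 499.7 to 228 CPM and Gadd45b 2.19-fold lower at 354 to 161 CPM. Egr2 stood at 18.3 to 79.6 CPM, a relative log2 ratio of 1.70 that became -0.0033 without a cluster of 404 cells, all from the Cre library, 73 of which had been gated as classical monocytes. In nonclassical monocytes 3 of 33 measured members were higher and 8 lower, where 3.28% of all genes measured there were higher and 5.54% lower by that rule. Hspa1b was 9.92-fold higher (7.30 to 13.7) at 21.1 to 209 CPM and Hspa1a 6.69-fold higher at 35.3 to 236 CPM, against Gadd45b 2.64-fold lower at 258 to 97.6 CPM, Fosb 2.17-fold lower at 209 to 96.1 CPM and Dusp2 1.94-fold lower at 1138 to 587 CPM. In neutrophils 5 of 36 measured members were higher and 3 lower, where 5.09% of all genes measured there were higher and 6.64% lower by that rule. Fosl1 was 4.16-fold lower (2.47 to 7.57) at 37.8 to 9.09 CPM and Gadd45b 1.37-fold lower at 856 to 625 CPM, against Egr2 2.68-fold higher at 21.7 to 58.2 CPM, Rhob 2.56-fold higher at 55.4 to 142 CPM and Hspa1b 2.67-fold higher at 8.17 to 21.8 CPM. The call of Hspa1b ended with clusters and at a pseudocount of 20 CPM (0.37 where nearest to 0), and that of Gadd45b without subtraction of the all-gene median (-0.45).

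In T, B and NK cells the member medians were near 0 (0.083, 0.078 and 0.020), and the inducible Hsp70 pair stood farthest out in T and B cells. In T cells 5 of 34 measured members were higher and 2 lower, where 3.55% of all genes measured there were higher and 3.93% lower by that rule. Hspa1b stood at 5.95 CPM (control library) and 182 CPM (Cre library), and was 30.6-fold higher (21.6 to 44.8), and Hspa1a was 18.9-fold higher (13.9 to 26.4) at 7.75 to 147 CPM. Jun was 2.83-fold higher at 125 to 355 CPM, Phlda1 2.60-fold higher at 23.6 to 61.5 CPM and Gadd45g 1.82-fold lower at 18.2 to 9.99 CPM. T cells with a UMI of Rag1, Rag2 or Dntt, genes of immature lymphocytes, numbered 18 in the control and 215 in the Cre library. Without them the relative log2 ratio of Hspa1b moved from 3.84 to 2.50, that of Hspa1a from 3.32 to 2.30 and that of Jun from 1.21 to 0.45, under the 1.5-fold limit. That of Phlda1 moved to 0.56, also under it, and the call of Gadd45g ended under 3 other settings. In B cells 5 of 36 measured members were higher and 0 lower, where 1.42% of all genes measured there were higher and 3.26% lower by that rule. Hspa1b was 10.4-fold higher (6.97 to 16.0) at 4.98 to 51.7 CPM and Hspa1a 5.77-fold higher at 7.03 to 40.6 CPM, with Zfp36 2.01-fold higher at 354 to 710.3 CPM, Egr1 1.86-fold higher at 124 to 232 CPM and Egr2 at 3.95 to 11.1 CPM. With cells thinned Egr1 in B cells came to 0.54, and Egr2 at a pseudocount of 20 CPM to 0.26, both under the limit. In NK cells 1 of 32 measured members were higher and 4 lower, where 3.82% of all genes measured there were higher and 5.48% lower by that rule. Zfp36 was 1.76-fold higher at 241 to 425 CPM, against Gadd45b 2.01-fold lower at 91.0 to 45.3 CPM, Ier3 at 36.3 to 23.0 CPM, Klf4 at 62.0 to 41.3 CPM and Fosb at 82.5 to 55.5 CPM. The calls of Ier3, Klf4 and Fosb in NK cells each ended under 4 or 5 of the alternative settings. In group 2 innate lymphoid cells (132 control and 485 Cre cells) 3 of 35 measured members were higher and 12 lower, where 9.26% of all genes measured there were higher and 8.47% lower by that rule. Hspa1b rested on 4 control and 95 Cre UMIs and was 8.77-fold higher (3.31 to 32.8), and Hspa1a on 4 and 66 and was 6.09-fold higher (2.27 to 23.0). Klf2 was 1.98-fold lower at 187 to 94.5 CPM, Myc 2.15-fold lower at 33.8 to 15.8 CPM and Cebpd 1.95-fold lower at 45.6 to 23.4 CPM, and the relative log2 ratio of Klf2 became -0.21 with clusters.

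Mesenchymal classes differed among themselves. Alveolar fibroblasts, which support the alveolar wall, had more members higher than lower: 8 of 34 measured members were higher and 1 lower, where 7.75% of all genes measured there were higher and 6.61% lower by that rule. Egr2 was 3.17-fold higher (2.41 to 4.25) at 34.1 to 108 CPM, Egr3 2.57-fold higher at 23.9 to 61.2 CPM, Fosl2 2.50-fold higher at 132 to 329.9 CPM and Maff, a small Maf protein, 2.40-fold higher at 143 to 343 CPM, and Socs3 was 2.24-fold lower at 342 to 153 CPM. In adventitial fibroblasts 4 of 36 measured members were higher and 8 lower, where 5.52% of all genes measured there were higher and 5.1% lower by that rule. Fos was 1.82-fold lower (1.77 to 1.88) there at 4523 to 2484 CPM, Socs3 2.44-fold lower at 213 to 87.5 CPM and Klf2 1.68-fold lower at 1045 to 623 CPM, against Fosl1 3.25-fold higher at 9.21 to 29.9 CPM and Egr2 2.23-fold higher at 79.3 to 177 CPM. Smooth muscle or pericyte cells (105 control and 126 Cre cells) had more members lower than higher: 4 of 33 measured members were higher and 14 lower, where 12.2% of all genes measured there were higher and 9.48% lower by that rule. Socs3 was 3.11-fold lower (2.35 to 4.14) at 457 to 147 CPM, Cebpd 2.59-fold lower at 1700.2 to 657 CPM, Myc 2.63-fold lower at 183 to 69.5 CPM and Atf3 2.53-fold lower at 2240.0 to 887 CPM, against Egr3 4.43-fold higher at 40.3 to 179 CPM. In mesothelium 3 of 36 measured members were higher and 6 lower, where 3.24% of all genes measured there were higher and 3.08% lower by that rule. Phlda1 was 4.85-fold higher (3.67 to 6.50) there at 23.3 to 113 CPM and Cebpd 1.98-fold higher at 57.3 to 113 CPM, against Dusp2 at 25.9 to 7.56 CPM, Klf2 at 999 to 475 CPM and Fos at 4442 to 2645 CPM.

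Across classes the heat shock members stood apart from the transcription factors. Their median was above the all-gene median in 24 of 24 classes, from 0.047 in interstitial macrophages to 0.86 in AT2 cells, with 40 calls higher and 1 lower (Hspa1a in ciliated cells) among 115 measured values, or 34.8% and 0.87%. Over the same 24 classes pooled, 6.09% of all gene values were called higher and 5.85% lower. Hsp90aa1 was above the all-gene median in all 24 classes and Hspa8 in 23, and Hspa1b was above it in all 22 classes where it was measured. The other members of the group were less uniform, with Hspa1a below the all-gene median in 9 of 22 measured classes and Dnajb1 in 7 of 23. Of the 40 calls higher, 15 were of Hspa1b and 8 of Hspa1a, near-identical copies whose separate values are uncertain. The AP-1 median was below the all-gene median in 20 of 24 classes and above it in 4, from -1.33 in aerocytes to 0.59 in AT2 cells, with 17 calls higher (8.85% of 192 measured values) and 68 lower (35.4%). Other transcription factors had 26 calls higher (14.3% of 182) and 46 lower (25.3%), and feedback regulators 29 (9.15% of 317) and 86 (27.1%). Gadd45b was lower in 10 classes and higher in 0, Socs3 lower in 13 and higher in 1, and Fosb lower in 14 and higher in 2. Phlda1 was higher in 9 and lower in 4, and Egr2 higher in 8 of the 11 classes where it was measured. The Egr2 calls in AT2, B and dendritic cells and classical monocytes each ended under 1 or 2 of the alternative settings. Their relative log2 ratios where nearest to 0 were 0.29, 0.26, 0.56 and -0.0033 in that order. Control and Cre UMIs are counted together, so a class can enter mainly through Cre UMIs, as dendritic cells did for Egr2. The Egr2 count is thus not firm.

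Counts per cell at equal depth had the same direction in AT2, general capillary, ciliated and lymphatic cells. After thinning to 1000 UMIs per cell, which left out 62 control and 49 Cre AT2 cells, a control AT2 cell held a median of 5 member UMIs (quartiles 3 and 9) and a Cre AT2 cell 9 (6 and 15). Unthinned, members took 0.68% and 1.14% of AT2 UMIs. In general capillary cells, where thinning left out 272 of 504 control and 169 of 349 Cre cells, the medians were 24.5 (17 and 36.2) and 13.5 (9.75 and 20.2), and unthinned shares were 2.76% and 1.72%. Ciliated cells went from 37 to 23 and lymphatic cells from 18.5 to 28.5. AT1 cells hardly differed, at 8 and 9. Classical monocytes had 24 and 25, although their median relative log2 ratio was -0.21. In control lymphatic cells the quartiles were wide, 8 and 36, against 14 and 37 in the Cre library. The 5th percentile of AT2 cells was 1 in the control and 3 in the Cre library and the 95th percentile 16 and 29, so the low, middle and high parts of the AT2 distribution were all higher in the Cre library.

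**Figure D4:**
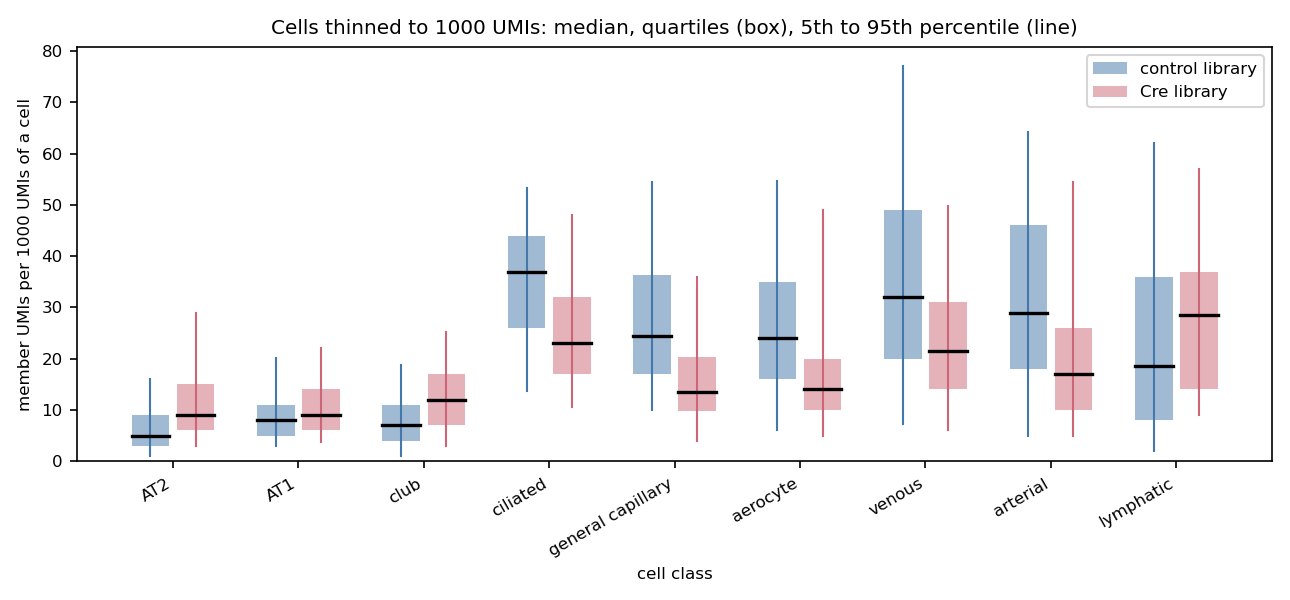
Member UMIs per cell after thinning each cell to 1000 UMIs, by cell class and library, with the median, quartiles (box) and the 5th to 95th percentile (line). AT2 boxes lie higher in the Cre library and general capillary and ciliated boxes lower, with overlap between the libraries in every class.

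Other genes of the same pathways gave a mixed picture in AT2 cells, where 4.19% of all genes were called higher and 3.55% lower. Of 27 measured further immediate early genes 15 were higher and 0 lower, with a median of 0.66, led by the nuclear receptor Nr4a2 (9.92 to 49.7 CPM, 5.01-fold higher (4.16 to 6.07)), the repressor Nfil3 (11.4 to 42.0 CPM, 3.67-fold higher (3.07 to 4.40)) and the prostaglandin synthase Ptgs2 (54.5 to 148 CPM, 2.72-fold higher (2.50 to 2.97)). In capillary cells 2 of 20 were higher and 6 lower, where 6.57% and 7.36% of all genes were, so the count of higher genes there is near the background. Of 20 further heat shock genes 12 were higher and 1 lower in AT2 cells, led by the co-chaperones Hsph1 (8.24 to 49.5 CPM, 6.01-fold higher (4.92 to 7.40)) and Stip1 (28.3 to 69.5 CPM, 2.46-fold higher (2.18 to 2.77)) and by Hsp90ab1 (645 to 1375 CPM, 2.13-fold higher (2.08 to 2.19)). In capillary cells 8 of 16 were higher and 0 lower, with Hsph1 again 6.33-fold higher (3.51 to 12.2) at 18.7 to 118 CPM. This list had its median above the all-gene median in 24 of 24 classes, from 0.12 in NK cells to 0.72 in AT1 cells. Feedback and signalling genes outside the set were near the all-gene share in AT2 cells, with 0 of 23 higher and 1 lower. That one was Socs2, a brake on growth hormone signalling (265 to 153 CPM, 1.73-fold lower (1.64 to 1.83)), and Errfi1 and Dusp8 lay within the limit at 311 to 509 CPM and 9.99 to 18.3 CPM. Of 20 transcription factors that drive immediate early genes 0 were higher and 1 lower, Mef2c at 6.49 to 3.47 CPM, again near the all-gene share. Stat3 at 131 to 192 CPM and Creb1 at 32.9 to 47.5 CPM lay within the limit. AT1 cells differed. There 6 of 12 measured feedback and signalling genes and 5 of 8 measured driving factors were higher and 0 lower. Of all AT1 genes 11.1% were higher and 8.85% lower. In club cells 0 of 20 and 0 of 17 were higher and 1 of each list lower, where 5.4% and 4.41% of all genes were.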

How the data were processed

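The authors deposited unnormalized UMI counts, whole numbers for each barcode and gene, made with Cell Ranger 3.1.0, STAR and the build mm10 per the submitters' processing notes (3.0.0 is the software version in the file headers). Gene annotation and cell filters are not stated in these sources. Barcodes with at least 200 genes, at least 500 UMIs and at most 20% mitochondrial UMIs were kept, and Scrublet doublets (scanpy 1.11.5, expected rate 0.06, 394 control and 435 Cre barcodes, 2.90% and 2.59%) were removed. Free RNA was not subtracted.

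A cell joined a class when its summed marker score reached 0.25 on a scale set by the highest-scoring cells, no second class exceeded 0.8 of that score, 3 or more markers were detected and its own lineage led. This scoring was set after the data were seen, and 1398 control and 2414 Cre cells stayed ungated. Leiden clusters (leidenalg 0.10.2, igraph 0.11.9) agreed in name for 92.6% of 22925 gated cells. Classes with at least 50 cells in each library were used, and erythroid, plasma and basophil or mast cells were not analysed here.

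Ratios carry the exact conditional 95% interval of 2 Poisson counts (scipy 1.17.1). UMIs remove amplification copies, so intervals cover counting error only. Every member is accounted for, with values for all called members in AT2 and general capillary cells and for the 5 farthest from the all-gene median in each other class. Of the lists of other pathway genes the 3 farthest in AT2 cells are named. The members and all lists were chosen with earlier results of these data known. The calculation was tested on simulated data.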

Additional observations from a re-analysis of the deposited data

Results flagged for a closer look

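The 6 members called higher in AT2 cells and lower in general capillary cells drew attention because the same pair of libraries differs in opposite directions in the 2 classes. The AT2 minus general capillary difference of log2 ratios was 2.22 for Fos, 2.0 for Fosb, 1.91 for Junb, 2.70 for Egr1, 2.86 for Cebpd and 1.76 for Ier3. Of all genes measured in each class, 4.19% were called higher in AT2 cells and 7.36% lower in general capillary cells. The share of all genes with both calls was not counted, so the 6 cannot be set against it. With 1 library per genotype the difference was not tested beyond counting error. In AT2 cells Fos, Fosb, Junb, Egr1 and Ier3 lay just past the 1.5-fold limit, so their call there depends on where that limit is drawn.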

How the results depend on the processing

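No paired analysis was possible because there is 1 library per genotype. The 17 alternatives, of which 3 were chosen after seeing the data, gave 112 values for the 7 summary results, 111 of them with the same direction. The epithelial member median of 0.047 ranged from 0.029 to 0.24, and was 0.22 with the mean of per-cell CPM, 0.23 without subtraction of the all-gene median and 0.24 with UMIs pooled over the lineage. The immune member median of -0.18 ranged from -0.20 to 0.00038, and was 0.00038 with cells thinned to 1000 UMIs and -0.025 without the subtraction. AT2 members past the fold numbered 9 with doublets kept and 23 without the subtraction, against 15. For these changes the cause was not tested. General capillary members past the fold ranged from 14 to 21, the endothelial member median from -0.45 to -0.27, the epithelial minus endothelial member median from 0.43 to 0.75 and the epithelial minus immune member median from 0.18 to 0.39.

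Among single classes, the member medians of club, T, NK, neutrophil, classical monocyte and plasmacytoid dendritic cells changed sign under at least 1 setting. The club member median ranged from -0.0060 to 0.59, the classical monocyte member median was 0.14 after thinning and the plasmacytoid dendritic cell member median 0.12 at a minimum of 200 UMIs per gene, both from negative values, and Egr2 in classical monocyte cells was -0.0033 without the cluster found in 1 library. Of 2056 values for 144 members named in a class, 1984 kept the call and 72, for 32 of them, ended it, and 40 lay over 1.5-fold from the reported value. Depth limits general capillary cells, aerocytes and AT1 cells, where thinning to 1000 UMIs left out 272 of 504, 188 of 352 and 45 of 102 control cells.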

Other observations

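Within the Cre library, AT2 cells with a UMI of Sox9, a gene of the distal lung progenitor, numbered 784 and those without 880, at medians of 8502 and 7596 UMIs. Of 36 measured members 1 was at least 1.5-fold higher and 0 lower with Sox9, against 1.46% and 0.75% of all genes, and the member median was 0.077 relative to the all-gene median. Having a UMI depends on depth, which differed between the groups, and these are cells of 1 library, so no test was made.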
